A study of Homo sapiens with 2 samples.

Results

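The regions described here are the peaks that spanned over 100 kb of genome in a list of YTHDF3-associated RNA regions from KYSE30 cells, an established human line of esophageal squamous cell carcinoma. The regions were selected on their span, a measured value: a peak was taken when its end lay more than 100000 bases from its start, whatever gene it was named for. This gave 715 of 18466 peaks, or 3.87%. Together they carried 682 of the 9268 gene names in the list. The study had 1 library of RNA immunoprecipitated with an antibody to YTHDF3 (RIP) and 1 library of input RNA, both from untreated cells in RPMI1640 medium with fetal bovine serum. Nothing in the labels gave a genetic change, a control antibody or a repeat of either library. Every value below is therefore 1 value per region, with no replicate, no error of its own and an unknown depth.

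YTHDF3 is a cytoplasmic protein that binds N6-methyladenosine (m6A), a methyl mark that the METTL3 and METTL14 enzymes place on RNA, and it is known for acting on the translation and decay of the RNAs it binds. Immunoprecipitation recovers the RNA together with the protein, and a peak caller compares the recovered reads with those of the input. Genes over 100 kb consist mostly of introns, which splicing removes, so the distance between 2 exons on the genome can far exceed their distance in the mature RNA. The deposited list gave only a start and an end for each peak, so the share of bases between them that carried reads cannot be stated.

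The start of a long region often lay at or near the start of a gene. The 5 promoter windows printed here all hold the boundary, so they show where it lay and not how often. Each window runs from 250 bases before to 50 bases after the RefSeq gene start (assembly GRCh38.p14), 5′ to 3′ on the gene's strand. Capitals mark the bases that lay inside the long region. BDNF-AS, an RNA antisense to the gene of a neural growth factor, is at chr11:27506602-27506901 on the plus strand. MYO9B, an unconventional myosin, is at chr19:17075527-17075826 on the plus strand. FAT1, a giant atypical cadherin, is at chr4:186726647-186726946 on the minus strand. PHF14, a chromatin protein with PHD fingers, is at chr7:10973622-10973921 on the plus strand. DIAPH2, a formin that elongates actin filaments, is at chrX:96684592-96684891 on the plus strand.
BDNF-AS: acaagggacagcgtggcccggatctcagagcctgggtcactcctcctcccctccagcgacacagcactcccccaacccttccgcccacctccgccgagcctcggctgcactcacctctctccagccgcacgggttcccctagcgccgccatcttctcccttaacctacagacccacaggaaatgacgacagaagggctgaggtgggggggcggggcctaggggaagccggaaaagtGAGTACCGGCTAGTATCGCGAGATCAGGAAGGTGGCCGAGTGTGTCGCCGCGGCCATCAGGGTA
MYO9B: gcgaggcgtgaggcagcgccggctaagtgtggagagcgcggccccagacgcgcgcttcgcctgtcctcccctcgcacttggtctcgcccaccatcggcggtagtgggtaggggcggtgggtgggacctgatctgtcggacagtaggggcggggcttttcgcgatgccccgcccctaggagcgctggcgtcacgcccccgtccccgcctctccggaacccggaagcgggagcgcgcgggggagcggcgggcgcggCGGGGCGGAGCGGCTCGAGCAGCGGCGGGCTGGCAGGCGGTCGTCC
FAT1: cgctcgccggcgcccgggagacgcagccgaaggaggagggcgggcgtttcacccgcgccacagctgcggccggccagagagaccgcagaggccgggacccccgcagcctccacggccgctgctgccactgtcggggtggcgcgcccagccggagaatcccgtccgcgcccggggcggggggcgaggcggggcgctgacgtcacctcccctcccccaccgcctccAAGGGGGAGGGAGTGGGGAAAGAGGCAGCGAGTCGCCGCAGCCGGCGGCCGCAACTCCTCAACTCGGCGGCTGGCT
PHF14: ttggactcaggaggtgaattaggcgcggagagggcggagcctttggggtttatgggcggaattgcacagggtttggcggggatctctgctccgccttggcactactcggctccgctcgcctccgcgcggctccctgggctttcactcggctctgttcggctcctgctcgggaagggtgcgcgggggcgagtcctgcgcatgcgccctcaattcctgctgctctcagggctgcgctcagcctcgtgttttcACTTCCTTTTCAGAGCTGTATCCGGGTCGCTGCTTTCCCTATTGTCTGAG
DIAPH2: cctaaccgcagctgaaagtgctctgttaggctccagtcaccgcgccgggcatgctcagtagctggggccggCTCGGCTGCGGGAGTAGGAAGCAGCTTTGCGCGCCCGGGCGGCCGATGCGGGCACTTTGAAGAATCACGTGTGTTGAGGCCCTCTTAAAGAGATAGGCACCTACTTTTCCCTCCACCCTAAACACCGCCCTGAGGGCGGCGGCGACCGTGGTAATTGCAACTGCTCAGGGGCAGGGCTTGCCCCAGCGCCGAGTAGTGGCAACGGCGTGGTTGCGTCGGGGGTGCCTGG
In PHF14 the capitals began exactly at the RefSeq gene start, and 50 bases of the window lay in the region. In MYO9B the region began 4 bases inside the gene. The BDNF-AS, FAT1 and DIAPH2 regions began 14, 26 and 179 bases upstream of it. Of the 715 regions, 606 belonged to a gene with a window in the RefSeq table, 205 of these had their 5′ boundary inside the window, and 29 began exactly at the gene start. All 606 lay on the strand of their gene. The gene start of a window was not always the outer gene bound used further below. The ENAH region began 19 bases upstream of the first and 736 bases inside the second. The letters GGACT, a common form of the m6A consensus, were found on either strand in 90 of the 205 windows (43.9%) and in 44.2% of all 35116 windows of this length. Most of each window lies before the gene start and either strand was counted, so these shares cannot speak to m6A in the recovered RNA.

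The spans ran from 100032 to 1991447 bases, with a median of 150638 bases and quartiles of 119343.5 and 208900.5 bases. Of the 715 regions, 356 spanned up to 150 kb, 160 spanned 150 to 200 kb, 120 spanned 200 to 300 kb, 52 spanned 300 to 500 kb and 27 spanned more. Though they were 3.87% of the peaks, they held 41.2% of the genome that the list covered (134.5 of 326.3 Mb). The regions just inside the threshold were named for UVRAG, an autophagy and endosome protein (100032 bases, fold enrichment 4.66), EVC, a ciliary protein (100301 bases, 5.68) and TOM1L2, an endosomal sorting protein (100370 bases, 3.18). Just outside lay LRP12, a lipoprotein receptor relative (99794 bases, 23.8), the clone-named locus RP5-1052I5.2 (99641 bases, 4.39) and NINJ2, a ninjurin adhesion protein (99484 bases, 6.27). The folds of the first 3 lay between 3.18 and 5.68, and the highest of the 6, that of LRP12, lay outside the threshold.

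Fold enrichment is the authors' ratio of RIP over input for a peak. It came from the same comparison that set the span, so the following levels describe the long regions and were not tested. Their median fold was 7.53, with quartiles of 4.82 and 11.3 and a range of 1.42 to 42.7. The median over all peaks was 5.02, and 533 of the 715 long regions (74.5%) were at or above it, against a background of 53.4% of all peaks, since many peaks share the median value. A fold of at least 10 was listed for 263 long regions (36.8%) and for 20.6% of the 17751 other peaks. A fold of at least 20 was listed for 46 (6.43%) and for 2.83% of the others. Few long regions were weakly enriched: 13 (1.82%) had a fold under 2, against 13.1% of the others.

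The adjusted p-value that the authors deposited was under 0.05 for 630 of the 715 regions, or 88.1%, against a background of 74.4% of all peaks. The exact 95% binomial interval of that share was 85.5% to 90.4%, and like all such intervals here it covers counting error only. Some regions with the same fold and p-value lay on different sides of this threshold, as given below. Among the peaks of at most 100 kb 73.8% passed, and among those of them that lay in genes over 100 kb, 70.1%. The share rose with span among the short peaks, from 26.8% at up to 200 bases to 77.5% at 1 to 10 kb and 89.0% at 50 to 100 kb. It was 89.3% at 100 to 200 kb, 88.4% at 200 to 500 kb and 63.0% (17 of 27) above 500 kb. The median fold over the same last 3 classes was 7.53, 8.78 and 8.78, so the longest regions had lower shares past the adjusted p and no lower folds. Within the long regions, the rank correlation of fold with span was 0.12 over 715 regions that share both libraries.

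**Figure D1:**
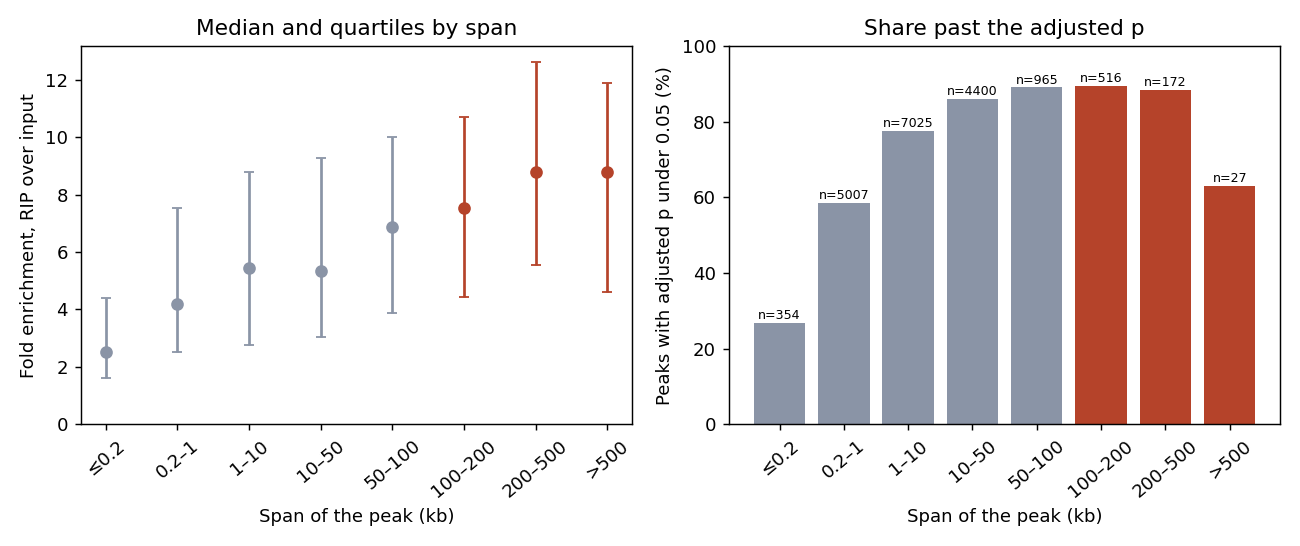
Fold enrichment (left, points are medians and bars the quartiles) and the share of peaks with an adjusted p under 0.05 (right, %) by span of the peak in kb, with n the number of peaks and the classes over 100 kb in red. The median fold was 2.51 in the shortest class and 8.78 in both classes above 200 kb, while the share past the adjusted p was 63.0% above 500 kb.

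Many of the values were not unique. Only 201 different folds occurred among the 715 regions, with 8.78 and 7.53 listed for 60 regions each and 10.0 for 55. The 10 most common folds were 3.76, 5.02, 6.27, 7.53, 8.78, 10.0, 11.3, 12.5, 13.8 and 15.1, in nearly even steps. The median folds of 7.53 and 8.78 given above are among these values. Why the folds fell on such steps was not tested. A set of 20 long regions had the same fold of 7.53, p-value of 0.0331 and adjusted p of 0.254, and 599 peaks of the whole list had exactly these values. The same triplet was listed for 3 of the 10 longest regions, which spanned 795941 to 861028 bases. A further 9 long regions shared a fold of 8.78, a p-value of 0.0166 and an adjusted p of 0.142 with 385 peaks in all. The region of SMARCA4 had the same fold of 8.78 with a p-value of 1e-226. In total, 272 of the long regions had a fold, p-value and adjusted p that at least 1 other peak also had. The adjusted p did not follow from the p-value alone. At a fold of 10.0 and a p-value of 0.00813, it was 0.0776 for 6 long regions, that of DMD among them, and 0.0417 for 4. A p-value of 0.0380 at a fold of 3.76 had an adjusted p of 0.106, below the 0.254 listed at 0.0331. The adjusted p threshold thus separated some regions with the same fold and p-value. Why it did was not tested.

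The 10 longest regions lay in genes that are themselves among the longest in the genome. MACROD2, an enzyme that removes ADP-ribose from proteins, had the longest, 1991447 bases at chr20:13995668-15987114, which covered 96.8% of the gene at a fold of 3.76 and an adjusted p of 0.0631. The region in DMD, the gene of dystrophin, spanned 1495223 bases, ended 3 bases beyond the 3′ end of the gene and began 724947 bases inside it, at a fold of 10.0 and an adjusted p of 0.0776. In AUTS2, a regulator of neural transcription and cell shape, the region spanned 1169133 bases, 97.8% of the gene, at a fold of 12.5 and an adjusted p of 5.01e-46. These 3 regions were the only ones over 1000000 bases, and of the 3 only that of AUTS2 had an adjusted p under 0.05.

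All others were shorter than 1000000 bases. Among these were the regions of DIAPH2 (920335 bases, fold 3.76, adjusted p 9.55e-05) and of KIAA1217 (743686 bases, fold 4.39, adjusted p 0.000398). TENM4, a teneurin of the cell surface, had 787821 bases, nearly the whole gene, at a fold of 11.3 and an adjusted p of 0.0132. The glycosyltransferase gene MGAT4C, CCSER1 and the repressor gene ZBTB20 carried the shared values of fold 7.53 and adjusted p 0.254. CTNND2, the gene of delta-catenin, had the other shared pair, 8.78 and 0.142. Thus 4 of the 10 longest regions passed the adjusted p threshold, and the 6 that did not had folds from 3.76 to 10.0.

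By fold the order was different. TSC22D1, a leucine zipper regulator of transcription, and BDNF-AS shared the highest fold, 42.7, over 102884 and 152635 bases. The TSC22D1 region (chr13:44474264-44577147) had a p-value listed as 0, and that of BDNF-AS (chr11:27506838-27659472) an adjusted p of 1.58e-80. SH3BP4, a regulator of receptor endocytosis, followed with 36.4 over 103742 bases, which spanned its whole gene and began 44 bases before it. PPP2R2C, a regulatory subunit of protein phosphatase 2A, had 32.6 over 243023 bases, 99.9% of the gene. MYO9B and SLC45A4, a sugar transporter relative, had 31.4 each, MAGI1, a scaffold of epithelial junctions, and CPS1, the first enzyme of the urea cycle, 30.1 each, the teneurin TENM3 28.9 and KIAA1549L 27.6. The last place was a tie, since TLE4, a Groucho corepressor, and FOXN3, a forkhead factor, also had 27.6. The first 10 had an adjusted p under 0.05, the largest being 3.31e-07 for CPS1.

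Of the 147 peaks whose p-value was listed as 0, 8 were long regions (1.12% of all long regions, against 0.796% of all peaks). Their folds ran from 2.74 to 42.7. ENAH, which promotes actin filament growth at the cell edge, had the lowest of these folds, 2.74 over 133971 bases. PHF14 had 10.0, the myosin phosphatase subunit PPP1R12A 10.7, MAP2K4, a kinase upstream of JNK and p38, 11.9, AMOTL1, an angiomotin of the Hippo pathway, 13.8, FAT1 14.4 and SPECC1 15.7. The next smallest p-values were those of GRHL2, a transcription factor of epithelial identity (fold 22.8, p-value 1e-293), and of SRPK2, a kinase of splicing factors (fold 8.78, p-value 1e-289). A small p-value was thus listed at low and at high folds.

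Of the 715 regions, 702 could be placed in a RefSeq gene of the same name, 689 of them protein-coding and 13 long noncoding, and 13 kept the name in the list. The regions ran along much of a gene. The median region covered 84.4% of its gene, 562 of the 702 (80.1%) covered at least 50% and 298 (42.5%, interval 38.8% to 46.2%) at least 90%. Part of this follows from the choice of regions, since a region over 100 kb in a gene of 100 to 150 kb covers most of it unless it leaves the gene. In such genes the median coverage was 97.1% (176 regions). It fell along the classes to 86.5%, 78.6% and 55.9%, and to 47.8% in the 83 regions of genes over 500 kb.

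The 5′ boundary lay at a gene end more often than the 3′ boundary. It was within 100 bases of the gene start in 246 regions (35.0%) and within 1000 bases in 410 (58.4%). At the 3′ end of the gene the counts were 65 (9.26%) and 136 (19.4%). The median offset into the gene was 252.5 bases at the 5′ side and 8993.5 bases at the 3′ side. Boundaries outside the gene count as negative in these medians, while the counts above took either direction. Both boundaries lay within 100 bases of their gene end in 20 regions (2.85%). The 4034 other peaks in genes over 100 kb were within 1000 bases of the gene start in 10.6% and of the gene end in 16.0%, with median offsets of 119293.5 and 12132.5 bases. A longer peak has a boundary near a gene end more easily than a short one, so these shares are given as a description.

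**Figure D2:**
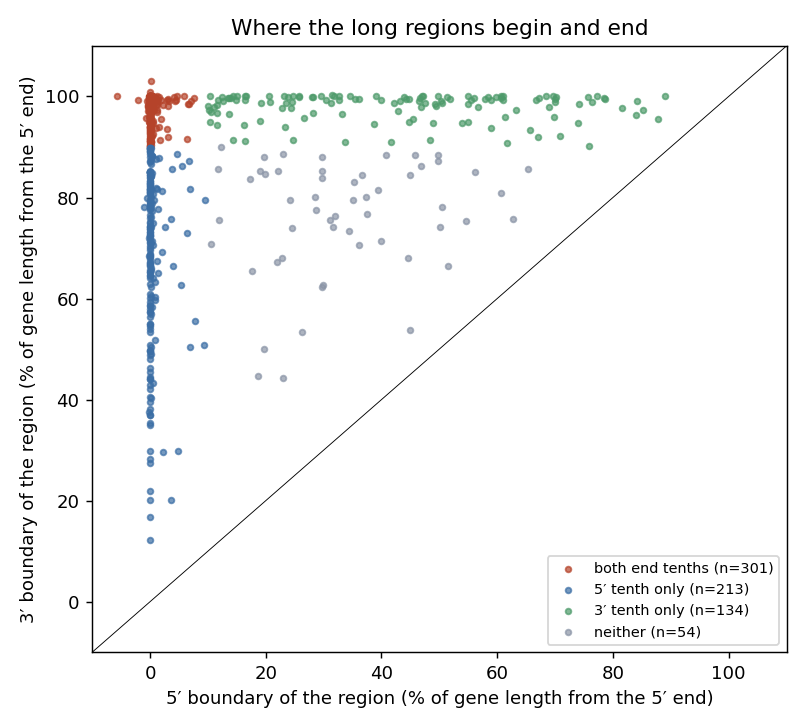
Position of the 5′ boundary (x axis) and the 3′ boundary (y axis) of each long region, both in % of gene length from the 5′ end of the gene, for 671 regions, with the 31 that lie outside the axes left out; n in the legend counts all 702. The points stack along 0% on the x axis, where 410 regions began within 1000 bases of the gene start, and spread along the y axis.

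The 5′ share was the larger in each class of genes over 100 kb. The 16 regions of genes up to 100 kb, not plotted, had 3 (18.75%) at the gene start and 4 (25%) at the gene end. In genes of 100 to 150 kb the 5′ boundary was within 1000 bases of the gene start in 78.4% and the 3′ boundary within 1000 bases of the gene end in 31.3%. In genes of 200 to 300 kb the shares were 59.2% and 14.1%, and in genes over 500 kb they were 36.1% and 10.8%. The share of regions with an adjusted p under 0.05 fell over the same gene lengths, from 96.0% at 100 to 150 kb to 89.4% at 200 to 300 kb and 69.9% over 500 kb.

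**Figure D3:**
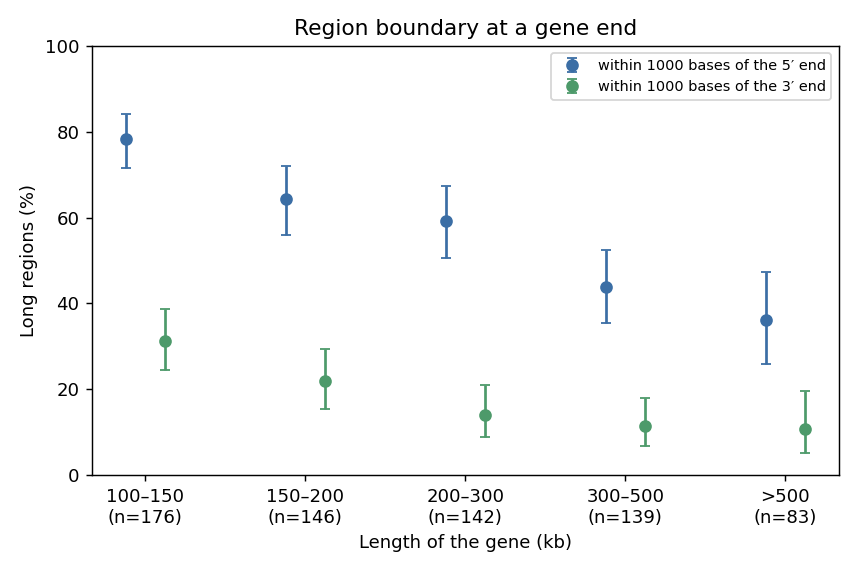
Share of long regions (%) with the 5′ boundary within 1000 bases of the gene start (blue) and the 3′ boundary within 1000 bases of the gene end (green), by gene length in kb, with exact 95% binomial intervals as bars and n regions per class, for genes over 100 kb. Blue points lie above green points in all 5 classes, 78.4% against 31.3% in the shortest genes and 36.1% against 10.8% in the longest.

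Regions that extended to or past both the first 10% and the last 10% of their gene had the highest median fold of 4 classes. There were 301 of these, with a median fold of 9.91, and 95.7% had an adjusted p under 0.05. The clustered protocadherin regions described below, which share bases, are in this class, with folds of 10.0 to 26.3. The 213 that reached the first 10% alone had a median fold of 6.27 and a share of 81.7%. For the 134 that reached the last 10% alone the values were 7.53 and 85.1%, and for the 54 that reached neither they were 4.93 and 81.5%. The classes also differed in gene length, with medians of 155784, 228000, 305320.5 and 375021.5 bases in this order. Whether the folds followed gene length was not tested. The 5′ class counts ZNF280D and the 3′ class UBA6-DT, whose regions lay wholly beyond that end of the gene.

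A long region was often followed by a further peak of the same gene. Of the 702 regions, 459 (65.4%) had one downstream, 361 (51.4%) within 10000 bases and 275 (39.2%) within 1000 bases. These short breaks had preferred lengths. Counted from the last base of the long region to the first base of the next peak, 62 of the 275 distances were exactly 60 bases, 30 were 90, 24 were 120, 14 were 150 and 12 were 180 bases. In all, 172 of the 275 (62.5%) were multiples of 30 bases. Peaks of at most 1000 bases had a span that was a multiple of 30 bases in 31.5% of 5361.

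Where 2 long regions followed each other in a gene, the distance varied widely, up to 426650 bases in PARD3. There were 33 such pairs, 12 of them within 1000 bases and 17 over 10000 bases apart. The 12 short distances included 60, 120 and 180 bases, but also 149, 255, 345 and 389 bases. The 2 regions of TRPS1, a GATA-type repressor, lay 60 bases apart with folds of 11.3 and 10.0, and those of MAML2, a Notch coactivator, 180 bases apart with 26.3 and 15.1. In TNIK, a kinase of Wnt signalling, the distance was 120 bases and the folds were 3.76 upstream and 15.7 downstream. The upstream region had the larger fold in 17 pairs, the downstream region in 13, and 3 were equal. CCSER1 and ARHGAP26, a GTPase activating protein, had 3 long regions each, with folds of 8.78, 3.14 and 7.53 and of 4.18, 6.81 and 8.78 from 5′ to 3′. None of the 3 in CCSER1 had an adjusted p under 0.05, and all of those in ARHGAP26 did. In PALM2AKAP2 the 2 regions were nested, ended at the same base and both had a fold of 2.51.

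The long region was compared with the other peaks of its gene. Of 669 matched genes, 186 had no other peak, among them FAT1, MYO9B, PHF14, PPP2R2C, SH3BP4 and MACROD2. The other 483 had a median of 2 further peaks and up to 12. In these the median fold was 7.53 for the long region and 8.78 for the best other peak. The long region had the larger fold in 209 (43.3%) and the smaller p-value in 311 (64.4%). In the 4069 genes with several peaks and no long region, the longest peak had the larger fold in 40.01% and the smaller p-value in 58.5%. MACF1, a giant linker of actin and microtubules, had 12 further peaks, and the best of them had a fold of 11.3 against 2.24 for its long region. EGFR, the receptor of epidermal growth factor, had 2.36 over its long region against 7.53. The opposite held in TSC22D1, with 42.7 against 12.8, and in TP63, the master regulator of squamous epithelium, with 5.44 against 3.38.

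Some regions left the RefSeq bounds of their gene. The region reached more than 100 bases upstream of the gene in 62 cases, more than 1000 bases in 24 and more than 50000 bases in 18. On the downstream side the counts were 15, 12 and 9. In 16 cases the gene itself was no longer than 100 kb. BANK1, a B cell adaptor, had a region that began 370769 bases upstream, at a fold of 7.53 and an adjusted p of 0.254. The region of GNGT1, the gamma subunit of rod transducin, began 314994 bases upstream of a gene of 4699 bases, at a fold of 5.02. MARK4, a kinase of microtubule-associated proteins, had 171983 bases upstream at a fold of 22.6, and MSH6, a DNA mismatch repair protein, 87326 bases at a fold of 8.78. In ZNF280D and UBA6-DT no base of the region lay inside the RefSeq gene. The sources used here do not name the gene models of the list, so these distances are relative to RefSeq alone.

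Other genes and other peaks also lay inside the regions. Whole protein-coding genes lay inside 45 regions (59 genes), long noncoding genes inside 297 (443 genes) and microRNA genes inside 86 (102 genes). MARK4 held the most protein-coding genes, 5. A further peak lay wholly inside 100 of the 715 regions (13.99%), on the same strand in 50 and on the opposite strand in 64, and in 98 it carried another gene's name. All 28 clustered protocadherin regions described below were among the 50 with a peak on the same strand. Overlap with a peak of another gene was near the background, at 141 of 715 (19.7%) against 18.1% of all peaks. The 126 peaks of ordinary length that lay inside a long region had a median fold of 7.53, and 79.4% had an adjusted p under 0.05.

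The clustered protocadherins of chromosome 5, adhesion proteins whose variable first exons are each spliced to the same constant exons, made up 28 of the long regions (3.92%). The 13 alpha regions began at different places and ended nearly together, at positions 141010995 to 141011001. Their spans were 127266 to 224866 bases and their folds 10.7 to 26.3, with a median of 16.3. The 15 gamma regions ended at 141512050 to 141512109, and 13 of them had a fold of 10.0, the other 2 of 11.3. Since each cluster shares its last part, these regions share bases and cannot be read as separate observations. The PCDHA1 region held 29 other peaks, the most of any. Without the 28, the median fold of the remaining 687 regions was again 7.53, and 10.5% held another peak.

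**Figure D4:**
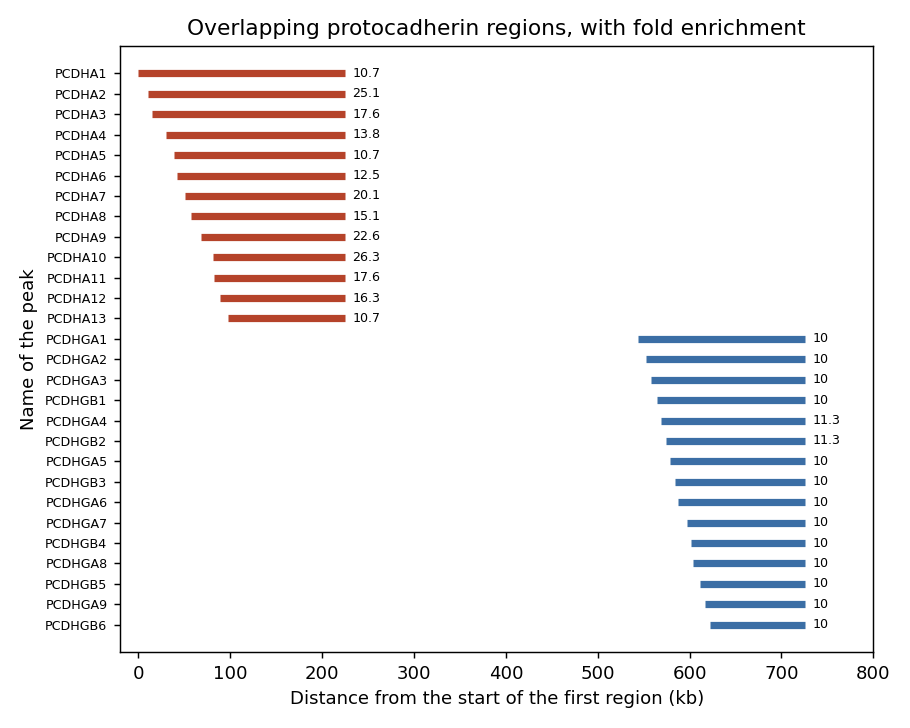
The 28 long regions of the clustered protocadherins, drawn to scale as bars from start to end, in kb from the start of the first region (x axis), one per peak name, with the fold enrichment beside each bar (alpha in red, gamma in blue). The alpha bars share a right end and have folds of 10.7 to 26.3, and the gamma bars share another with folds of 10.0 or 11.3.

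Most long genes had no long region. Of 3351 protein-coding genes over 100 kb, 1680 (50.1%) had any peak and 645 (19.2%, interval 17.9% to 20.6%) had a long region, which is 38.4% of those with a peak. Among genes with a peak the share with a long region was 24.96% at 100 to 150 kb, 40.3% at 150 to 200 kb, 43.4% at 200 to 300 kb, 61.1% at 300 to 500 kb, 61.8% at 500 to 1000 kb and 80.0% (12 of 15) above that. A longer gene leaves more room for a long region. The share of genes with any peak was 53.7% at 100 to 150 kb and 21.7% above 1000 kb. The list gives no expression level, so a gene that was not transcribed cannot be told apart from a gene without enrichment.

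The long regions were then counted in 10 lists of genes, drawn up from general knowledge with earlier results of these data known. Each list was counted over its members longer than 100 kb, beside the 19.2% of all protein-coding genes over 100 kb. Most lists also had any peak more often than the 50.1% of all such genes, so the share among genes with a peak is given too, beside 38.4% over all. Highest were regulators of small GTPases, with 25 of 49 (51.0%, interval 36.3% to 65.6%). Any peak was found in 85.7% of this list, and 59.5% of the genes with a peak had a long region. SRGAP1 and SIPA1L3 (fold 20.1 each) and TIAM2 (15.1) led the list, and ASAP1, an Arf GTPase activating protein, was last with 1.42, the lowest fold of any long region. SRGAP1 acts on Rac and Cdc42, SIPA1L3 on Rap, and TIAM2 is an exchange factor of Rac. Of the 29 regions in this list 26 had an adjusted p under 0.05, and the median fold was 6.27. Over all 715 long regions the share was 88.1% and the median fold 7.53, to be set beside these and the later lists.

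Genes of the cytoskeleton, adhesion and polarity had a long region in 24 of 49 (49.0%, interval 34.4% to 63.7%), with a median fold of 7.53 and 21 of 25 regions past the adjusted p. Any peak was found in 83.7%, and 58.5% of those genes had a long region. They included MAGI1 (30.1), FAT1 (14.4) and MYO10 (12.5), a myosin of filopodia. For regulators of chromatin and transcription the count was 25 of 54 (46.3%, interval 32.6% to 60.4%), with a median fold of 8.68 and 23 of 25 past the adjusted p. Any peak was found in 94.4%, and 49.0% of those genes had a long region. The transcription factor NFIA (25.1 over 375147 bases), the histone acetyltransferase KAT6A (20.1) and BPTF (18.5), a subunit of the NURF remodeller, led the list. JMJD1C, a demethylase relative, was last at 1.78 with an adjusted p of 0.1.

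Genes known to be altered in esophageal squamous carcinoma had 11 of 27 (40.7%, interval 22.4% to 61.2%), all 11 past the adjusted p, with a median fold of 5.74. Any peak was found in 81.5%, and 50% of those genes had a long region. FBXW7, the substrate receptor of a ubiquitin ligase, had 26.3, FAT1 14.4 and CREBBP, a histone acetyltransferase, 12.9. TP63 and EGFR had 5.44 and 2.36. RNA processing and m6A genes had 11 of 32 (34.4%, interval 18.6% to 53.2%), again all past the adjusted p, with a median fold of 4.16. Any peak was found in 75% and a long region in 45.8% of those genes. Among these, SRPK2 had 8.78, UPF2, a factor of nonsense-mediated decay, 7.68, and the RNA editing enzyme ADARB1 7.53. IGF2BP2, itself an m6A reader, had 4.16 over 99.7% of its gene.

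Kinases and phosphatases had 19 of 64 (29.7%, interval 18.9% to 42.4%), or 38.8% of those with a peak, led by TNIK (15.7), PRKCE (15.1), a protein kinase C, and CDK13 (12), a kinase of RNA polymerase II. Genes at common fragile sites had 11 of 39 (28.2%, interval 15.0% to 44.9%). In that list only 13 genes had any peak, and 11 of these 13 had a long region. Over all protein-coding genes with a peak, that share was 61.8% at 500 to 1000 kb and 80.0% above 1000 kb. The fragile site regions had a median fold of 4.18, and 10 of 15 were past the adjusted p. Among all long regions in genes over 500 kb, 69.9% were past it. The highest folds of the fragile site list were those of TENM3 (28.9), AUTS2 (12.5), and FOXP1, a forkhead transcription factor, level with DMD (10.0 each). The adjusted p was 0.0191 for FOXP1 and 0.0776 for DMD.

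Mitotic genes, the subject of the study's title, are mostly short: 26 of the 114 listed exceeded 100 kb, 20 of these had a peak and 6 had a long region (23.1%, interval 8.97% to 43.6%). These were PDS5B, a cohesin regulator (12.5), the spindle proteins TACC1 (8.78) and TACC2 (7.53), the chromokinesin KIF4A (5.27), the centrosome protein CDK5RAP2 (4.11) and the checkpoint protein MAD1L1 (1.65). All 6 had an adjusted p under 0.05. Ubiquitin ligases and deubiquitinases had 8 of 47 (17.0%, interval 7.65% to 30.8%), or 22.2% of those with a peak. FBXW7 led them at 26.3, followed by CUL1, a cullin scaffold, at 13.0 and SMURF1 at 8.78. Membrane traffic genes had the lowest share, 5 of 47 (10.6%, interval 3.55% to 23.1%), or 17.2% of those with a peak, with SNX29, a sorting nexin, at 17.6 and GOLGA4, a golgin, at 8.78. Some genes stand in several lists. The lists were not matched for gene length and were not tested against all genes.

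**Figure D5:**
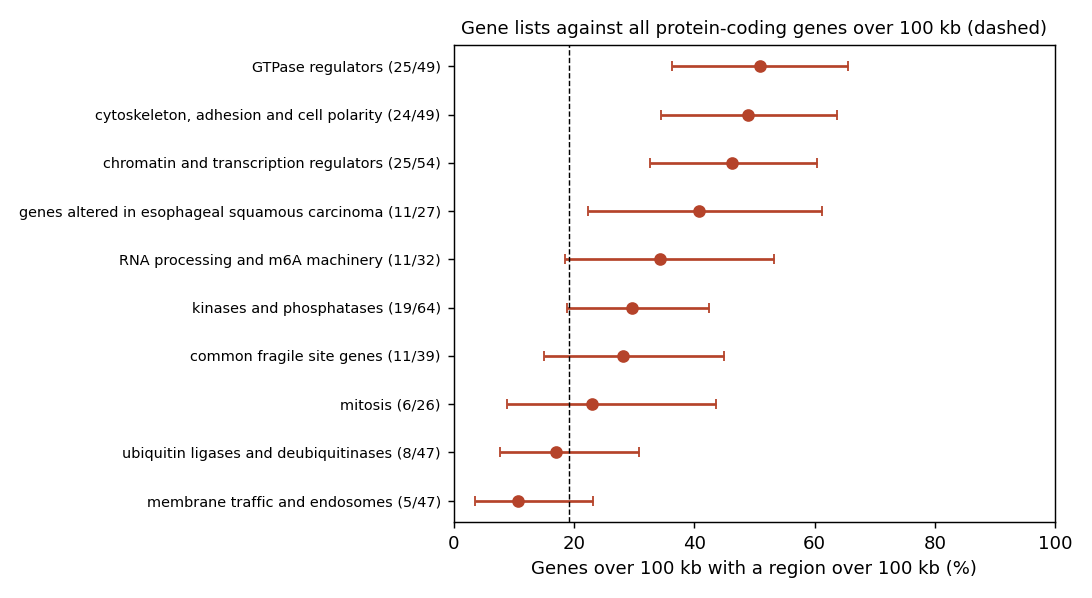
Share of genes over 100 kb with a long region (x axis, %) in 10 gene lists, with exact 95% binomial intervals as bars and the counts of genes in brackets; the dashed line is the 19.2% of all protein-coding genes over 100 kb. The shares run from 10.6% for membrane traffic to 51.0% for GTPase regulators, and the line counts all long genes, of which 50.1% had any peak.

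Markers of cell identity were read in the whole list. Of 16 squamous epithelial markers, 12 had a peak, and EGFR, GRHL2 and TP63 had a long region, while DSC3, KRT17, KRT6A and PKP1 had no peak. Of 6 immune markers and of 5 markers of stroma and endothelium, 2 each had a peak and none a long region. The adjusted p was under 0.05 for a peak of all 12 squamous, 1 immune and 0 stromal markers. Over all protein-coding genes, 38.0% of those up to 100 kb and 50.1% of the longer ones had a peak. Of 4 neuronal markers 2 had a peak, each with an adjusted p under 0.05, and SYT1, a calcium sensor of synaptic vesicles, had a long region.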

How the data were processed

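1 YTHDF3 RIP library and 1 input library of KYSE30 cells were each 1 group, by title. RNA of both was fragmented, copied with random hexamers, tagged with molecular identifiers and sequenced as paired 150-base reads, per the labels' protocols. Per the submitters' processing notes, the genome build was hg38. Aligner, peak caller, thresholds, gene models and read totals are not given in the sources used, so depth is unknown. The authors deposited 1 peak list, in which fold enrichment is a ratio of RIP over input. Each peak also has a p-value and an adjusted p-value, deposited by the authors on a linear scale and used as listed. Some peaks with the same fold and p-value had different adjusted p-values. They compare 2 libraries and say nothing of conditions.

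Regions were those with an end minus start over 100000 bases. Starts were read as 0-based and are printed 1-based. Names were matched to RefSeq genes (GRCh38.p14) by symbol (676 regions), older symbol (23) or spreadsheet date (3), on the same chromosome within 100000 bases. The named genes are the 10 longest, the 10 of highest fold, the 10 of smallest p-value, those with 3 regions, those beside the threshold and the leading 3 of each gene list. Others named, such as ASAP1, JMJD1C, TLE4 and MACF1, were chosen after their values were seen. The members and the gene lists were chosen with earlier results of these data known. Shares carry exact 95% Clopper-Pearson intervals. No test was made, since span, fold and p-value come from the same comparison. Other span thresholds, boundary tolerances and overlap rules were tried. Python 3.11.15 with numpy 2.4.6, pandas 2.3.3 and scipy 1.17.1 was used, and the geometry code was tested on simulated regions.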

Additional observations from a re-analysis of the deposited data

How the results depend on the processing

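With a threshold of 50000 bases there were 1680 regions and with 200000 bases 199, of which 84.9% had an adjusted p under 0.05. At these thresholds 35.6% and 46.9% covered at least 90% of their gene, and 22.7% and 13.0% of the genes longer than the threshold had a region. At 50000 bases the share of genes was 71.2% for chromatin and transcription regulators, 47.3% for kinases and phosphatases and 26.8% for membrane traffic. Counting regions with an adjusted p under 0.05 alone gave 17.3% of genes. Leaving out regions that overlap a peak of another gene gave 16.0% of genes, 38.2% covering at least 90% of their gene and 0.348% holding another peak. A coverage of at least 50% was met by 80.1%. A boundary at a gene end was found for 19.1% within 10 bases and 67.2% within 1000 bases, against 41.5% within 100 bases. Another peak was held by 20.1% when 1 shared base sufficed and by 6.99% on the same strand, both with the clustered protocadherins included. Without them 10.5% held another peak on either strand, a setting chosen after seeing the data. The share at 50% coverage, at other tolerances and under other overlap rules moved because the criterion itself differed, and the cause of the other shifts was not tested. With an adjusted p under 0.05, the list shares ran from 10.6% to 44.9%. The other 50 values stayed within their intervals or within 1.5 times. No paired analysis was possible because each group had 1 library and no result came from a test. With 1 library a group and no read totals, neither the spread between samples nor the depth limit of any fold can be given.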
